A study of Bos taurus with 111 samples.

Results

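DDIT4 (ENSBTAG00000000163) and GADD45A (ENSBTAG00000013860), 2 stress-responsive genes that restrain growth, were followed across breed, diet phase and feed efficiency class in the muscle of beef steers. Both were taken by their gene identifiers, as 2 of the 24616 genes counted. DDIT4, also known as REDD1, is switched on by glucocorticoids, hypoxia, energy shortage and DNA damage, and its protein acts through the TSC complex to inhibit mTORC1, the kinase complex that promotes protein synthesis when nutrients and insulin are plentiful. GADD45A belongs to a small family of growth arrest and DNA damage inducible genes, which are induced by p53 and by ATF4 under cell stress, and in skeletal muscle it is known for its rise after denervation and during atrophy. Transcripts of both genes are short-lived and accumulate within hours of a stimulus.

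Biopsies of M. longissimus thoracis et lumborum were taken from Charolais (CH) and Holstein-Friesian (HF) steers in 3 feeding phases of 70 days. In order of time these were a first high concentrate diet (H1), zero-grazed grass (ZG) and a second high concentrate diet (H2). The phases did not follow one another directly, and the phase numbers in the labels skip from H1 to ZG. A change between phases is therefore not that of a direct switch of diet. Within each breed and phase the steers were of low (L-RFI) or high (H-RFI) residual feed intake, which is the feed eaten beyond what body weight and growth predict, so that an L-RFI steer eats less than predicted, and the steers were those at the extremes of the ranking within breed and diet. At the start the steers had a mean age of 283 days (CH) or 306 days (HF), and mean body weight at the start of H1, ZG and H2 was 395, 519 and 675 kg in CH and 294, 441 and 611 kg in HF. All steers passed through the phases in the same order, so that diet, age, body weight and date of biopsy cannot be told apart in any comparison of phases.

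A total of 104 libraries from 77 steers were used, 49 from CH and 55 from HF. For H1, ZG and H2 in turn these were 10, 8 and 7 H-RFI and 8, 9 and 7 L-RFI libraries in CH, and 11, 10 and 8 H-RFI and 9, 9 and 8 L-RFI libraries in HF. The 7 libraries left out were 6 with fewer than 1000000 counts on genes and the H-RFI library of steer 571 in CH-ZG, in which 5 liver markers summed to 142767 counts per 1000000 gene counts (CPM). The highest sum of those markers in a library used was 13862.6 CPM, in H-RFI steer 5616 of HF-ZG. The libraries used held between 2201765 and 52552057 gene counts (median 15852125.5). In 25 steers more than 1 phase was sampled, and 8 steers were L-RFI in one phase and H-RFI in another. Skeletal muscle markers were not analysed here because none of the 8 listed symbols could be paired with an identifier, so that the labelled tissue was not checked in this way. Of 3 red cell markers listed, 1 could be paired, HBD, so that HBA and HBB were not checked. HBD was above 0 in 2 of 104 libraries, at no more than 0.0839 CPM.

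DDIT4 was detected in every library used, between 9.73 and 619 CPM with a median of 120 CPM. In both breeds its median was highest on grass and lowest in the final concentrate phase. In CH the lowest, median and highest values were 38.4, 123 and 298 CPM in H1, 88.0, 175 and 498 CPM in ZG, and 13.8, 41.5 and 240 CPM in H2. In HF they were 21.8, 92.6 and 291 CPM in H1, 62.1, 189 and 619 CPM in ZG, and 9.73, 68.3 and 270 CPM in H2. The ranges of all groups overlapped, and libraries above the median of all 104 numbered 19 of 38 in H1, 27 of 36 in ZG and 6 of 30 in H2. In these bulk samples, fewer cells of a type and less RNA per cell cannot be told apart.

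GADD45A was scarcer in counts, between 0 and 69.3 CPM with a median of 8.5 CPM. Over both breeds its median was highest in the first phase, at 9.89 CPM, against 7.59 CPM in ZG and 5.45 CPM in H2. In CH the lowest, median and highest values were 3.61, 10.1 and 33.8 CPM in H1, 0.312, 5.92 and 17.6 CPM in ZG, and 0, 6.17 and 15.7 CPM in H2. In HF they were 2.34, 9.82 and 69.3 CPM in H1, 1.14, 9.93 and 44.4 CPM in ZG, and 1.10, 4.95 and 27.6 CPM in H2. Libraries above the overall median numbered 25 of 38 in H1, 15 of 36 in ZG and 12 of 30 in H2, again with overlapping ranges. The single library without a GADD45A count was L-RFI steer 856 in CH-H2, the shallowest of those used, where 3 counts would correspond to 1.36 CPM.

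**Figure D1:**
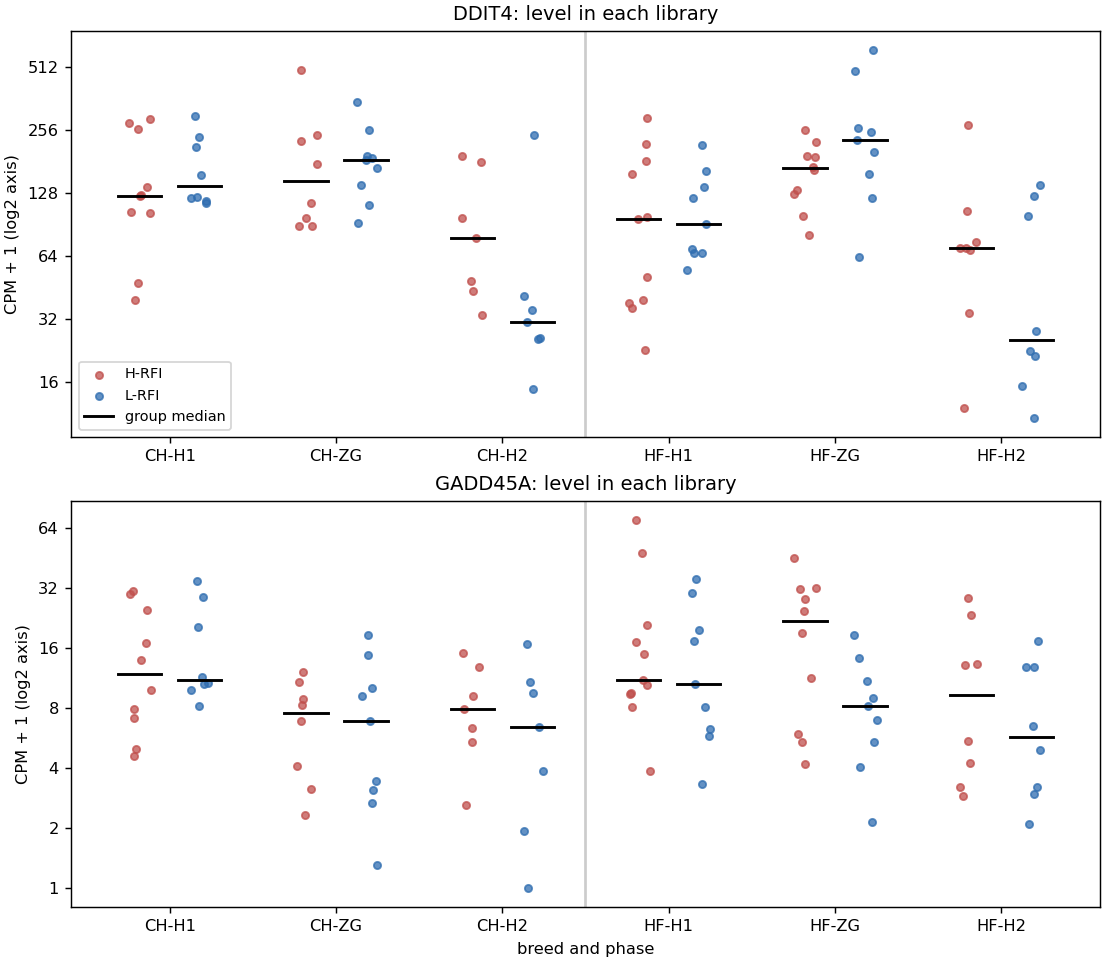
Level of DDIT4 (top) and GADD45A (bottom) in each of the 104 libraries, as CPM + 1 on a log2 axis, by breed and phase on the horizontal axis, with H-RFI libraries in red, L-RFI libraries in blue and black bars at the group medians. DDIT4 sits highest in the ZG groups (medians 175 and 189 CPM) and lowest in the H2 groups (41.5 and 68.3 CPM), whereas GADD45A has its widest gap between RFI classes in HF-ZG.

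When the 6 groups of breed and phase were ordered by mean log2(CPM + 1), DDIT4 ran from HF-ZG (7.51) through CH-ZG (7.39), CH-H1 (7.13), HF-H1 (6.48) and CH-H2 (5.77) down to HF-H2 (5.62). The largest gap between neighbours, 0.71 between HF-H1 and CH-H2, was below their pooled SD of 1.10. That SD is the spread of single libraries, so this is not a test of the group means. For GADD45A the order was CH-H1 (3.72), HF-H1 (3.71), HF-ZG (3.46), HF-H2 (2.84), CH-H2 (2.61) and CH-ZG (2.56). Here too the largest gap, 0.62 between HF-ZG and HF-H2, was below the pooled SD of 1.21.

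A few genes took a large share of each library, and the levels of both members on the CPM scale varied with the scaling factor. The 20 most abundant genes held 36.9% to 68.1% of a library's gene counts. Factors from TMM, the trimmed mean of M-values that edgeR uses to put libraries on one scale, ran from 0.5 to 1.56. On the CPM scale the median of all genes was shifted by -0.34 (log2) from H1 to ZG, by 0.10 from ZG to H2 and by -0.25 from H1 to H2 in CH. The corresponding shifts in HF were -0.13, -0.23 and -0.35, whereas after TMM scaling these shifts lay between -0.065 and 0.014. The fold changes below therefore come from TMM-normalised fits and are relative to the bulk of genes. After subtraction of the group means, the r between log2(CPM + 1) and the log2 TMM factor over the 104 libraries was 0.54 for DDIT4 and 0.79 for GADD45A. Both measures come from the same libraries.

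The response of DDIT4 to the change of phase was tested with limma voom, with the steer as a block, and a gene was called at an adjusted p-value below 0.1 (Benjamini-Hochberg, over 10291 genes) and a fold change above 1.5. From ZG to H2 DDIT4 fell by 1.78 in CH (log2 scale, SE 0.31, adjusted p = 0.000208), to 0.291 times its ZG level. In HF it fell by 1.69 (SE 0.30, adjusted p = 0.000179), to 0.311 times its ZG level. These were calls in comparisons that called 1.11% of all genes in CH and 7.01% in HF. From H1 to ZG DDIT4 rose 2.23-fold in HF (log2 fold change 1.16, SE 0.28, adjusted p = 0.0225), where 0.69% of genes were called. In CH the change was 0.65 (SE 0.30, adjusted p = 0.195) and was not called, and the background there was 2.4%.

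Between the concentrate phases, DDIT4 fell by 1.14 in CH from H1 to H2 (log2 scale, SE 0.31, adjusted p = 0.0276), to 0.455 times its H1 level, with 2.72% of genes called. In HF the change was -0.53 (SE 0.29, adjusted p = 0.170) and was not called, although 16.3% of all genes were. The 4 calls held when each of the 77 steers was left out in turn. Many of these steers had no library in the groups of a given contrast, and the steer correlation was kept from the full fit. The HF rise from H1 to ZG was not called when the 7 left-out libraries were included (1.10, adjusted p = 0.137), and the CH fall from H1 to H2 was not called either with those libraries (-1.03, adjusted p = 0.178) or with edgeR fitted without the steer block (-0.86, adjusted p = 0.152).

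GADD45A was called in none of the 6 phase contrasts by the same test. Its largest fitted changes were from H1 to H2 in CH (log2 fold change -0.99, SE 0.36, adjusted p = 0.124) and from H1 to ZG in CH (-0.85, SE 0.33, adjusted p = 0.128). In HF the change from H1 to H2 was -0.64 (SE 0.32, adjusted p = 0.131) and that from ZG to H2 was -0.42 (SE 0.33, adjusted p = 0.426). From H1 to ZG it was -0.22 in HF (SE 0.30, adjusted p = 0.900). The change from ZG to H2 in CH was -0.13 (SE 0.38, adjusted p = 0.982), and its sign depended on the scaling, with a difference of 0.05 on the CPM scale and -0.05 after TMM scaling. Leaving out a single steer led to a call for 6 of 77 steers in CH from H1 to ZG, for 2 in CH from H1 to H2 and for 3 in HF from H1 to H2. With sample quality weights GADD45A was called in HF from ZG to H2 (-0.68, adjusted p = 0.0857) and from H1 to H2 (-0.88, adjusted p = 0.0178).

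**Figure D2:**
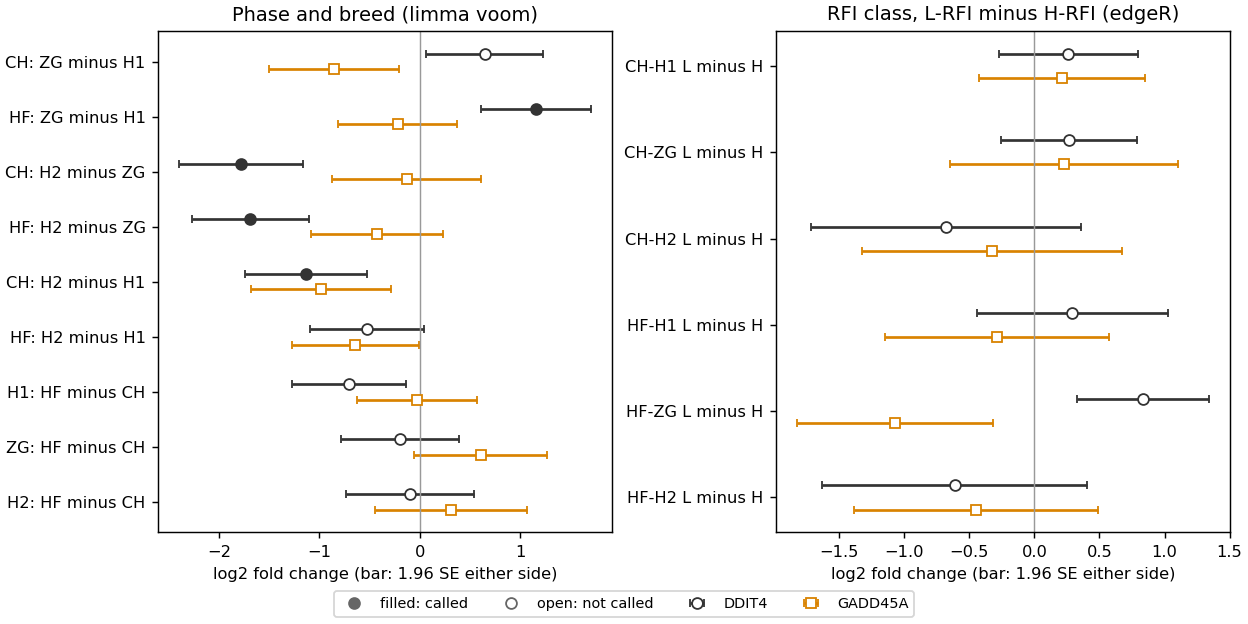
Fitted log2 fold changes of DDIT4 (circles) and GADD45A (squares) for phase and breed from limma voom (left) and for RFI class from edgeR (right), with bars for the normal 95% interval and filled symbols where the gene was called. The filled symbols are the 4 phase contrasts of DDIT4, and in HF-ZG the RFI differences of the members lie on opposite sides of 0, at 0.83 for DDIT4 and -1.07 for GADD45A.

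Some steers were sampled in 2 phases, which allowed the change to be read within the same animal. Steers 307, 856, 1100 and 1816 of CH and 1920, 2064, 2065 and 5635 of HF changed RFI class between phases. The within-steer tests took no account of class. All 5 CH steers sampled in both ZG and H2 had less DDIT4 in H2. Their values went from 96.5 to 34.2 CPM in steer 307, from 350 to 13.8 in steer 310, from 191 to 32.3 in steer 1100, from 88.0 to 42.5 in steer 1484 and from 91.5 to 29.8 in steer 1492. The mean change in log2(CPM + 1) was -2.24 (SD 1.41, n = 5), with an exact two-sided sign-flip permutation p of 0.0625, which is the smallest that 5 steers allow (adjusted p = 0.156 over the 10 within-steer tests). In HF, all 5 steers sampled in H1 and H2 had less DDIT4 in H2. Their values went from 180 to 74.1, 38.7 to 9.73, 158 to 33.3, 163 to 98.7 and 68.4 to 27.1 CPM, a mean change of -1.48 on the log2 scale (SD 0.58, n = 5, exact permutation p = 0.0625, adjusted p = 0.156). On TMM-scaled values 4 of these 5 were lower and the mean change was -0.67 (exact permutation p = 0.125).

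Between H1 and grass the direction of DDIT4 was less regular within steers. In HF, 5 of 6 steers were higher in ZG than in H1, from 21.8 to 62.1, 35.3 to 249, 219 to 254, 50.1 to 79.7 and 89.8 to 121 CPM, while steer 5635 went from 291 to 229 CPM. The mean change was 0.87 (SD 1.11, n = 6, exact permutation p = 0.0938, adjusted p = 0.188), and after TMM scaling all 6 were higher (1.2, exact permutation p = 0.0312, the smallest that 6 steers allow). In CH, 2 of 5 steers were higher in ZG (mean change 0.11, exact permutation p = 0.875), and 4 of 5 were after TMM scaling (0.51, exact permutation p = 0.188). From H1 to H2 in CH, 4 of 6 steers were lower, with a mean change of -0.87 (SD 2.0, n = 6, exact permutation p = 0.312), and steers 443 (38.4 to 179 CPM) and 1320 (102 to 191 CPM) went the other way. Fewer than 3 HF steers were sampled in both ZG and H2, so that this pair of phases had no within-steer test. DDIT4 there rose from 223 to 270 CPM in steer 1639 and fell from 490 to 139 CPM in steer 5612.

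While DDIT4 was higher on grass in 5 of 6 HF steers on the CPM scale, in the same steers GADD45A was lower. All 6 had less of it in ZG than in H1, from 14 to 3.03 CPM in steer 2064, 8.46 to 5.93 in 2065, 69.3 to 27.0 in 2069, 16.2 to 10.3 in 5613, 2.34 to 1.14 in 5632 and 46.6 to 7.18 in 5635. The mean change was -1.24 (SD 0.84, n = 6, exact permutation p = 0.0312, adjusted p = 0.156), and -0.96 after TMM scaling, with the same 6 of 6. Of the 6, steers 2064, 2065 and 5635 were H-RFI in H1 and L-RFI in ZG, so that phase and class changed together in them. The fit over all HF libraries gave -0.22 for these phases. From H1 to H2 all 5 HF steers were lower, with a mean change of -1.53 (SD 0.90, n = 5, exact permutation p = 0.0625, adjusted p = 0.156), and 4 of 5 were after TMM scaling (-0.88, exact permutation p = 0.125). In CH, 4 of 5 steers were lower in ZG than in H1 (-1.18, SD 1.45, exact permutation p = 0.188) and 4 of 6 were lower in H2 than in H1 (-0.96, SD 2.12, exact permutation p = 0.344). No within-steer test passed 0.1 after adjustment over the 10 tests.

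**Figure D3:**
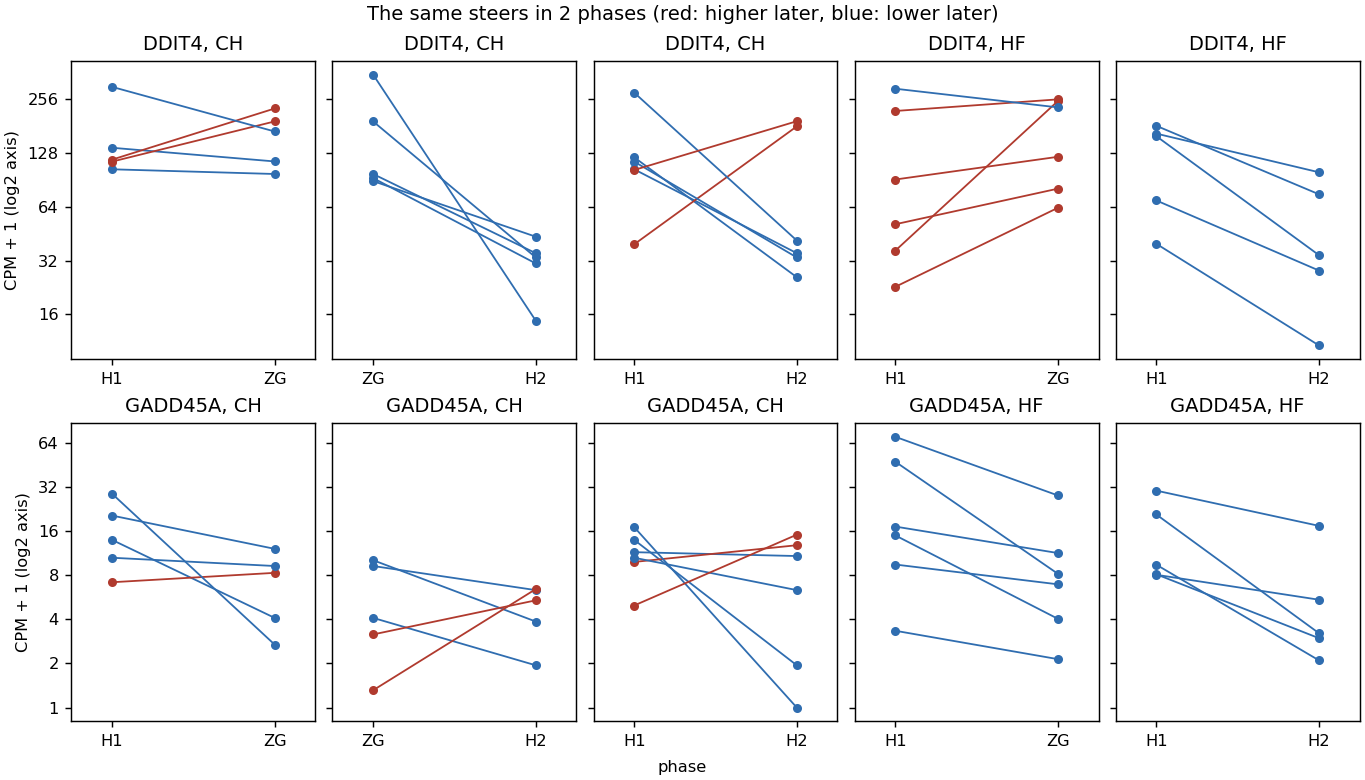
DDIT4 (top) and GADD45A (bottom) in steers sampled in 2 phases, as CPM + 1 on a log2 axis, with a line for each steer in blue where the later value was lower and in red where it was higher. All 5 DDIT4 lines from ZG to H2 in CH fall, and so do all 6 GADD45A lines from H1 to ZG in HF.

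Neither gene was called between the breeds in any phase. DDIT4 was lower in HF than in CH in H1 by a fitted -0.70 (log2, SE 0.29, unadjusted p = 0.0168, adjusted p = 0.487 by limma), where 0.262% of genes were called. Its breed difference was -0.19 in ZG (SE 0.30) and -0.10 in H2 (SE 0.32). GADD45A differed by -0.03 in H1 (SE 0.30), 0.61 in ZG (SE 0.34, adjusted p = 0.362) and 0.31 in H2 (SE 0.39), beside backgrounds of 1.69% in ZG and 0.223% in H2. The sign of the GADD45A value in H1 turned under 2 of the alternatives, edgeR without a block (0.10) and sample quality weights (0.13). Of the genes on the lists described below, FOXO1 was higher in HF than in CH in H1 (1.16, adjusted p = 0.0273) and ARRDC2 lower (-1.11, adjusted p = 0.0753). In ZG the adipocyte gene FABP4 (1.93, adjusted p = 0.0476) and LYZ, a lysozyme of leukocytes (1.65, adjusted p = 0.0921), were higher in HF. Except for FOXO1, these calls were lost with all libraries.

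Whether the change between phases differed between the breeds was tested by the interaction of breed and phase. For this interaction DDIT4 is on the study's own gene list made from these libraries. With limma voom the interaction had p = 0.293 for DDIT4 and p = 0.363 for GADD45A (adjusted p = 0.945 for both), and 0 of 10291 genes (0%) were called, with 513 at an unadjusted p-value below 0.05 and 1 called by edgeR without a block. From H1 to ZG the DDIT4 change was larger in HF than in CH by 0.51 (log2, SE 0.41).

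The L-RFI and H-RFI steers were compared within each breed and phase with edgeR's quasi-likelihood test, the main comparison of the study. Neither gene was called in any of the 6 comparisons, and no other gene was (0% in each). For H1, ZG and H2 in turn, 216, 79 and 89 genes in CH and 317, 1228 and 72 genes in HF had an unadjusted p-value below 0.05. DESeq2 called 2, 0 and 2 genes in CH and 0, 1 and 0 in HF.

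In HF steers on grass the fitted RFI differences of the 2 genes had opposite signs and, among the 6 groups, the lowest unadjusted p-values of each. DDIT4 there ranged from 79.7 through a median of 167 to 254 CPM in the 10 H-RFI steers and from 62.1 through 229 to 619 CPM in the 9 L-RFI steers. Of the 9 L-RFI steers, 6 were above the H-RFI median and 3 were above the highest H-RFI steer, while 1 was below the lowest. The fitted difference, L-RFI minus H-RFI, was 0.83 (log2, SE 0.26, a 1.78-fold difference, unadjusted p = 0.00397, adjusted p = 0.381 by edgeR), which ranked 20th of 10571 genes by p-value. An exact two-sided permutation test of the same libraries gave a difference of 0.49 in log2(CPM + 1) (p = 0.188, adjusted p = 0.677 over 12 tests). On TMM-scaled values it gave 0.78 (exact permutation p = 0.00935, adjusted p = 0.112), so that the size of this difference depended on the scaling.

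GADD45A in the same HF-ZG steers ranged from 3.20 through a median of 20.7 to 44.4 CPM in H-RFI and from 1.14 through 7.18 to 17.6 CPM in L-RFI. None of the 9 L-RFI steers reached the H-RFI median, and 6 of 10 H-RFI steers were above the highest L-RFI steer, although the lower H-RFI values overlapped with the L-RFI range. The fitted difference was -1.07 (log2, SE 0.39, unadjusted p = 0.0110, adjusted p = 0.381 by edgeR), or 0.476 times the H-RFI level. The exact permutation test gave -1.08 (p = 0.0510, adjusted p = 0.612), and -0.83 after TMM scaling (p = 0.0446, adjusted p = 0.267). GADD45A is on the study's list for this comparison, which was made from these libraries, so that its direction here is not independent evidence. Without H-RFI steer 5616, whose library had the highest liver marker sum, the difference was -1.06 for GADD45A and 0.82 for DDIT4. Over the 19 HF-ZG libraries the r between GADD45A (CPM scale) and the percent of reads counted on genes was -0.83. That percent ran from 74.1 to 84.4 in H-RFI and from 75.9 to 87.9 in L-RFI. In CH-H1, CH-ZG, CH-H2, HF-H1 and HF-H2 the r was -0.79, -0.78, -0.30, -0.04 and -0.85. In HF-H1 the percent was as low as 45.7 in L-RFI steer 2102, and the rank correlation (Spearman) there was -0.47. The part of this percent in the RFI difference was not tested.

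Leukocyte markers had the same direction as GADD45A in HF-ZG. The summed level of PTPRC, CD3E, CD53, LCP1 and LYZ had a median of 24.2 CPM in H-RFI (3.99 to 148 CPM) and 6.52 CPM in L-RFI (2.31 to 28.0 CPM), and 0 of the 5 genes were called, with a median log2 fold change of -1.19 against -0.03 over all genes. The part of these cells in the GADD45A difference was not tested. The 17 immediate early genes described below had the same direction as DDIT4 there, with a median sum of 974 CPM in L-RFI and 647 CPM in H-RFI, a median log2 fold change of 0.43 and 0 of 17 called. Liver markers summed to a median of 140 CPM in L-RFI and 150 CPM in H-RFI, with highest sums of 443 and 13862.6 CPM. Their median log2 fold change was -2.47, with 0 of 5 called. Over all 104 libraries, with the group means subtracted, the r between GADD45A and the leukocyte sum was 0.48 on the CPM scale and 0.26 after TMM scaling. For DDIT4 the values were 0.26 and 0.01. These points share library composition, and the marker genes are themselves on the study's lists.

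The H2 groups had lower DDIT4 medians in L-RFI than in H-RFI. In CH-H2 DDIT4 ranged from 32.3 through a median of 77.2 to 191 CPM in H-RFI and from 13.8 through 29.8 to 240 CPM in L-RFI. All 7 H-RFI steers were above the L-RFI median, and 4 of 7 L-RFI steers were below the lowest H-RFI steer, but L-RFI steer 1316 was above all of them at 240 CPM. The fitted difference was -0.68 (log2, SE 0.53, adjusted p = 1.00 by edgeR), and -1.54 without steer 1316 (SE 0.39, adjusted p = 1.00). In HF-H2 DDIT4 ranged from 11.1 through 69.2 to 270 CPM in H-RFI and from 9.73 through 24.3 to 139 CPM in L-RFI, with 7 of 8 H-RFI steers above the L-RFI median and a fitted difference of -0.61 (SE 0.52). It was -0.30 without H-RFI steer 1639, the highest there at 270 CPM, and -0.92 without steer 5612.

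The remaining fitted DDIT4 differences were 0.26 (SE 0.27) for H1 and 0.27 (SE 0.27) for ZG in CH, and 0.29 (SE 0.37) for H1 in HF. For GADD45A they were smaller than their SE, namely 0.21 (SE 0.33), 0.23 (SE 0.45) and -0.32 (SE 0.51) for H1, ZG and H2 in CH, and -0.29 (SE 0.44) for H1 and -0.45 (SE 0.48) for H2 in HF. The CH-ZG sign of GADD45A depended on the scaling, with -0.10 on the CPM scale against 0.003 after TMM scaling. Of the 12 exact permutation tests on the CPM scale, that of GADD45A in HF-ZG had the lowest adjusted p-value (0.612).

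An RFI effect common to the 6 groups was called for neither gene. It was 0.09 for DDIT4 (log2, SE 0.18, p = 0.602, adjusted p = 0.779 by limma) and -0.30 for GADD45A (SE 0.20, p = 0.136, adjusted p = 0.544). No gene was called (0%), with 719 at an unadjusted p-value below 0.05 and 0 called by edgeR without a block.

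With both breeds pooled, the medians of DDIT4 were higher in L-RFI than in H-RFI in H1 and ZG and lower in H2. The pooled median was 121 CPM in L-RFI against 103 CPM in H-RFI in H1, 189 against 167 CPM in ZG, and 27.1 against 69.2 CPM in H2. In HF-H1 alone the order was the other way, with 89.8 CPM in L-RFI and 95.4 CPM in H-RFI. A limma test of whether the RFI effect varied among the 6 groups gave an unadjusted p of 0.00637 for DDIT4, the 6th smallest of 10291 genes, with an adjusted p of 1.00. For GADD45A the test had p = 0.440 and rank 2341. No gene was called (0%), and 106 were below an unadjusted 0.05. With edgeR without a block the DDIT4 p was 0.0804, and with all libraries it was 0.0518.

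A contrast chosen after these medians had been seen compared the RFI effect of H2 with those of the earlier phases, as the mean of both breeds. For DDIT4 the effect in H2 was below that in ZG by 1.5 on the log2 scale (limma, SE 0.42, unadjusted p = 0.000488, adjusted p = 0.999) and below that in H1 by 1.42 (SE 0.41, unadjusted p = 0.000821, adjusted p = 1.00). In each of these contrasts 0 genes (0%) were called, with 151 and 185 at an unadjusted p-value below 0.05. The estimate against ZG was -1.29 with all libraries and -1.21 by edgeR without a block. For GADD45A the same contrast was -0.19 (SE 0.52, unadjusted p = 0.714), and edgeR turned its sign (0.03).

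Other genes of the pathways around DDIT4 and GADD45A were described where an identifier could be paired with a name. None of the 20 mTORC1 genes or the 11 hypoxia genes listed could be, and the 37 genes that could were all named in the study's own gene lists, so their counts are not independent evidence. Of 5 glucocorticoid and FOXO response genes tested (ARRDC2, CEBPD, CISH, FOXO1 and PDK4), 2 were called lower from ZG to H2 in each breed, PDK4 and CEBPD. These contrasts called 1.11% of all genes in CH and 7.01% in HF. PDK4, the kinase that switches off pyruvate dehydrogenase and so spares glucose in fasting, fell by 2.81 in CH (log2, SE 0.58, adjusted p = 0.00276) and fell by 2.92 in HF (SE 0.55, adjusted p = 0.000320). CEBPD, a transcription factor induced by glucocorticoids and inflammation, fell by 0.93 in CH (adjusted p = 0.0701) and fell by 1.03 in HF (adjusted p = 0.00337). The median change of the list was -0.93 in CH and -0.83 in HF, against -0.02 and -0.05 over all genes. In CH, PDK4 was not called by edgeR without a block (-1.65, adjusted p = 0.264), nor CEBPD without the filter on low counts (-0.96).

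From H1 to ZG, ARRDC2 (1.2) and CEBPD (0.92) rose in HF, both with an adjusted p of 0.0225 by limma, and 0 of 5 were called in CH. From H1 to H2 in HF, PDK4 fell by 1.68 (adjusted p = 0.0162) and FOXO1, a transcription factor active when insulin is low, fell by 1.2 (adjusted p = 0.00123), while ARRDC2 rose by 1.11 (adjusted p = 0.00488). In CH the PDK4 change from H1 to H2 was -1.69 (adjusted p = 0.0920), a call that 4 of the alternatives lost.

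Immediate early genes, which cells transcribe within minutes of a stimulus, were also lower in H2 than on grass. Of 24 listed, the 17 tested were those named in the study's own gene lists, which were made from these libraries. Their share called is therefore not comparable with that of all genes in any contrast. From ZG to H2, 16 of 17 tested were called lower in CH and 15 of 17 in HF, with median log2 fold changes of -1.70 and -1.36. These contrasts called 1.11% of all genes in CH and 7.01% in HF. In CH the change was -4.10 for FOS (adjusted p = 3.91e-05), -1.78 for JUN (adjusted p = 2.32e-06) and -1.70 for NR4A1 (adjusted p = 2.68e-05), of which FOS and JUN encode parts of the AP-1 factor. With all libraries the call of NR4A1 was lost (-1.18). In HF, NR4A2, an orphan nuclear receptor, fell by 4.33 (adjusted p = 0.000135) and JUN fell by 1.36 (adjusted p = 0.000161), with FOSL2 at -1.25 (adjusted p = 0.000249) and MIDN at -1.49 (adjusted p = 0.000292).

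From H1 to ZG, 9 of 17 were called higher in CH, where 2.4% of all genes were called. Among them were KLF11 (1.24, adjusted p = 0.000287), NR4A2 (2.56, adjusted p = 0.0103), NR4A1 (1.06, adjusted p = 0.0110, lost with all libraries) and FOSB (2.85, adjusted p = 0.0147). In HF 5 of 17 were called higher, where 0.69% of all genes were called. Among them were KLF11 (1.09, adjusted p = 0.00137), JUNB (1.58, adjusted p = 0.0128), CCN1 (0.89, adjusted p = 0.0311, lost with all libraries) and ZFP36 (0.72, adjusted p = 0.0495, lost with quality weights). With all libraries both counts were 3, and with edgeR without a block that in HF was 9. From H1 to H2, 1 of 17 was called lower in CH (JUN, -0.89, adjusted p = 0.0310, lost with all libraries) and 8 of 17 in HF. The median log2 fold changes of the 17 were -0.71 in CH and -0.70 in HF. These contrasts called 2.72% of all genes in CH and 16.3% in HF. Among the 8 were NR4A3 (-3.33, adjusted p = 0.000351), FOSL2 (-1.03, adjusted p = 0.000532), MIDN (-1.09, adjusted p = 0.00264) and BTG2 (-1.65, adjusted p = 0.00708). Summed over the 17 genes, the median level was 484, 713 and 273 CPM in CH and 423, 684 and 248 CPM in HF for H1, ZG and H2. The part of this response in the DDIT4 differences was not tested.

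BTG2, an antiproliferative gene induced by p53 and also counted among the immediate early genes, was the single gene tested of the GADD45 and p53 list. It rose by 1.52 in CH from H1 to ZG (SE 0.44, adjusted p = 0.0352, lost with all libraries) and from ZG to H2 it fell by 2.88 in CH (adjusted p = 0.000257) and fell by 2.45 in HF (adjusted p = 0.000395). Of the ATF4 list PCK2, a mitochondrial enzyme of gluconeogenesis, was the gene tested, and it rose by 1.00 in HF from H1 to H2 (adjusted p = 0.0355, lost with edgeR without a block). Of the denervation list it was CHRND, a subunit of the acetylcholine receptor, with -1.15 in HF from ZG to H2 (adjusted p = 0.0686), a call that 4 of the alternatives lost. The adipocyte genes CIDEC (2.43, adjusted p = 0.000148) and FABP4 (2.11, adjusted p = 0.000707) rose in HF from H1 to H2. From ZG to H2 in HF, where DDIT4 fell, CIDEC (1.34, adjusted p = 0.0573) and FABP4 (1.21, adjusted p = 0.0881) also rose, and edgeR without a block lost both calls.

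The gene whose variation among steers was most like that of DDIT4 was PDK4. With the mean of each of the 12 groups of breed, phase and RFI class subtracted, their r was 0.73 over the 104 libraries, the highest of 10290 genes, and it was 0.62 and again the highest after TMM scaling, an alternative added after the CPM values had been seen. The median level of PDK4 was 57.3, 116 and 9.18 CPM in CH and 65.6, 179 and 15.6 CPM in HF in H1, ZG and H2. NR4A2 was 10th for DDIT4 on the CPM scale (r = 0.60) and 3rd after TMM scaling (r = 0.53), with medians of 2.31, 13.9 and 0.510 CPM in CH and 5.17, 21.1 and 0.474 CPM in HF. The other 8 of the 10 nearest genes had no name here, and 7 of the 10 were also among the 10 nearest after TMM scaling.

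For GADD45A the nearest genes were 9 unnamed ones and ADAM9, a membrane metalloprotease, which was 9th (r = 0.84) and 16th after TMM scaling (r = 0.74). The highest r of any gene with GADD45A was 0.86. These values need the background, since the median r of all genes was 0.57 with GADD45A and 0.39 with DDIT4 on the CPM scale, and 0.06 and 0.01 after TMM scaling, and all points share library composition. Among the 17 immediate early genes the median r with DDIT4 was 0.40 on the CPM scale, with 17 above 0, and 0.28 after TMM scaling, with 16 above 0. With GADD45A the median was 0.23, with 15 above 0, and -0.09 after TMM scaling, with 6 above 0.

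**Figure D4:**
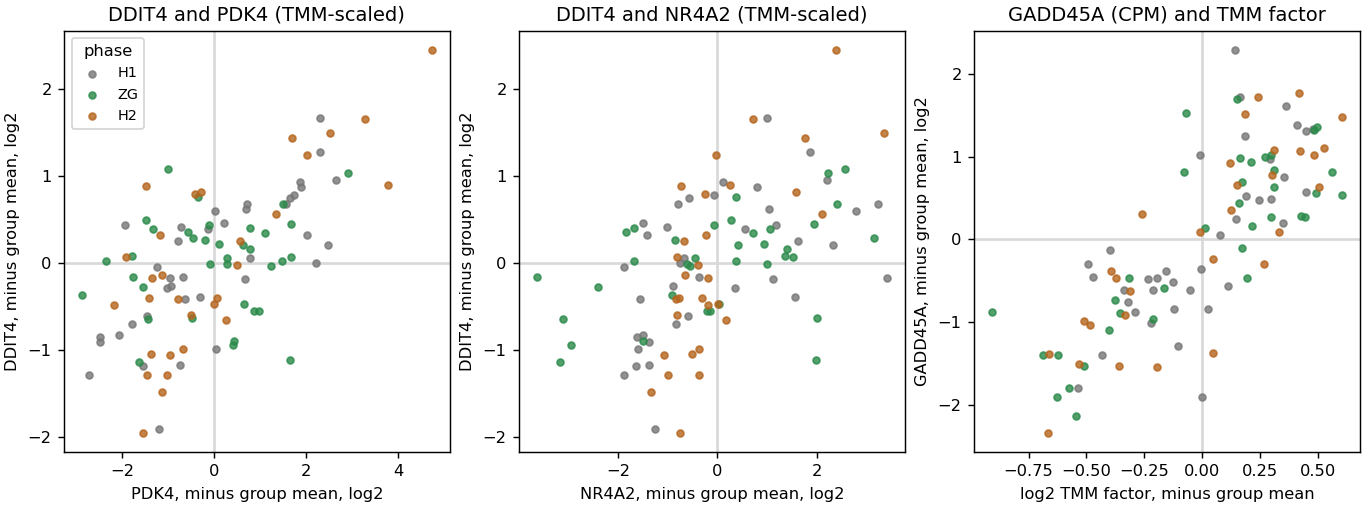
Deviation from the group mean, on the log2 scale, of DDIT4 against PDK4 (left) and NR4A2 (middle) after TMM scaling, and of GADD45A on the CPM scale against the log2 TMM factor (right), for 104 libraries coloured by phase. The r is 0.62, 0.53 and 0.79 from left to right, and libraries of all 3 phases lie along each cloud.

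Between DDIT4 and GADD45A the r was 0.52 on the CPM scale with the group means subtracted, and 0.24 after TMM scaling. Within the groups of breed and phase the TMM-scaled r ran from -0.31 in the 19 HF-ZG libraries to 0.59 in the 16 HF-H2 libraries. The 3 highest DDIT4 libraries were all from ZG, at 619 CPM (95% Wilson interval 607 to 632) in L-RFI steer 2094 of HF, 498 CPM in H-RFI steer 1879 of CH and 490 CPM in L-RFI steer 5612 of HF. Their immediate early genes summed to 4509, 4020 and 3403 CPM. The 3 lowest were all from H2, at 9.73 CPM (8.11 to 11.7) in L-RFI steer 1920 of HF, 11.1 CPM in H-RFI steer 1913 of HF and 13.8 CPM in L-RFI steer 310 of CH, with sums of 187, 187 and 149 CPM. The highest GADD45A libraries were H-RFI steers 2069 (69.3 CPM) and 5635 (46.6 CPM) of HF-H1 and H-RFI steer 2087 (44.4 CPM) of HF-ZG, none of which was among the 3 highest for DDIT4.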

How the data were processed

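RNA sequencing of steer muscle was re-analysed from raw counts per gene that the authors deposited for each library, neither normalised nor filtered. Before deposition the authors removed adapters with cutadapt and, per the submitters' processing notes, aligned with STAR 2.5.1, whose gene counting mode produced these counts. The labels name the UMD 3.1 assembly and the study's methods ARS-UCD1.2, so no coordinates are given. As the kit keeps strand, counts of the reverse strand were taken (median 99.0% of stranded gene counts). The number of identical library pairs was 0.

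DDIT4 and GADD45A, and the gene lists, were chosen with earlier results of these data known. Libraries with fewer than 1000000 gene counts and that of steer 571 were left out. A gene was kept where 50% or more of the libraries reached 1 CPM, and TMM factors were computed. The RFI classes were compared with edgeR's quasi-likelihood test within breed and phase. Phase, breed, their interaction and the common RFI effect were tested with limma voom, with breed, phase and RFI class as terms and the steer as a block (duplicateCorrelation, consensus correlation 0.128). The pairing comes from the steer numbers in the labels. Calls required an adjusted p below 0.1 and a fold change above 1.5. RFI differences of the 2 genes were also tested by exact permutation, and changes within steers by exact sign-flip permutation, on log2(CPM + 1). Promoter motifs were not analysed here. The fits were tested on simulated counts drawn independently for each library, so that their handling of repeated steers was not tested. Steers are separate animals. The fits ran in R 4.3.3 with limma 3.58.1, edgeR 4.0.16 and DESeq2 1.42.0, and the rest in Python 3.11.15 with pandas 2.3.3, scipy 1.17.1, numpy 2.4.6 and matplotlib 3.10.9.

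Named were both genes, the genes called from each list (at most 4 by p-value, BTG2 standing on 2 lists) and, for likeness, the 10 genes of largest r. Names came from the study's gene list, which pairs 151 identifiers with symbols, and 37 of 157 list symbols matched. In a library 3 counts were taken as the smallest detectable level (median 0.189 CPM), and this limit and the 95% Wilson intervals cover counting error only. Alternatives were edgeR's exact test, DESeq2, RLE size factors, no filter, unstranded counts, all libraries, no block, quality weights, a pseudocount of 0.25, TMM-scaled values and leaving out each steer. The contrasts of RFI effects between phases and TMM-scaled likeness were chosen after seeing the data.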

Additional observations from a re-analysis of the deposited data

Results flagged for a closer look

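In 3 groups 1 library stood apart in DDIT4 by Dixon's test at the 95% level, each as the highest of its group. These were H-RFI steer 1879 in CH-ZG at 498 CPM, L-RFI steer 1316 in CH-H2 at 240 CPM (a gap to the next library of 0.882 of the range of 7) and H-RFI steer 1639 in HF-H2 at 270 CPM (0.638 of the range of 8). The test was run on CPM, not on log2 values, for 22 pairs of gene and group. The group of 11 libraries, HF-H1 H-RFI, was not tested for either gene. Chance flags about 1 in 20 where values are normally distributed. That was not checked for CPM, a scale on which high values stand out more than on a log2 scale. No group was flagged for GADD45A.

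The RFI effect on DDIT4 differed between the 6 groups of breed and phase at an unadjusted p of 0.00637 by limma, but not after adjustment over 10291 genes.

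The library of CH-ZG H-RFI steer 571, which entered no comparison, held 45.7 CPM of DDIT4 and 17.4 CPM of GADD45A. The 8 CH-ZG H-RFI libraries used held 88.0 to 498 CPM and 1.32 to 11.1 CPM. Liver markers summed to 142767 CPM in it.

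On the opposite strand, 276 counts lay over DDIT4 and 56 over GADD45A in the 104 libraries together, 0.0985% and 0.244% of the counts on both strands.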

How the results depend on the processing

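Of 282 values of the 2 genes under other settings, 271 kept their direction and side of the threshold, and so did 1871 of 1902 with a steer left out. In many of the latter the steer left out had no library in the groups compared. With all libraries, DDIT4 lost its calls in CH from H1 to H2 (-1.03) and in HF from H1 to ZG (1.10), and edgeR without a block lost the former (-0.86). With sample quality weights DDIT4 was called in CH from H1 to ZG (0.61) and in HF from H1 to H2 (-0.79), and GADD45A in HF from ZG to H2 (-0.68) and from H1 to H2 (-0.88). GADD45A reversed for breed in H1 with edgeR without a block (0.10) and quality weights (0.13), for the RFI effect of H2 against ZG with edgeR (0.027) and in CH-ZG by permutation after TMM scaling (0.0028). No replicate block (the steer) changed no call of either gene, and the count for breed in H2 went from 23 to 11. With a steer left out, ranges that changed sign or call were for DDIT4 -0.23 to 0.059 for breed in H2 and -0.65 to -0.42 in HF from H1 to H2, and for GADD45A -0.11 to 0.40 for RFI in CH-ZG, -0.52 to 0.11 for RFI in HF-H1, -0.15 to 0.090 for breed in H1, -0.97 to -0.73, -0.25 to 0.011 and -1.17 to -0.82 in CH from H1 to ZG, ZG to H2 and H1 to H2, and -0.75 to -0.52 in HF from H1 to H2. The cause of these changes was not tested. Numbers of genes called moved more. With all libraries the breed counts in H1, ZG and H2 were 8, 4 and 1, the CH counts from H1 to ZG, ZG to H2 and H1 to H2 were 41, 45 and 44, and the HF counts were 16, 229 and 901. With quality weights they were 136, 875 and 218 for breed, 683 in CH from H1 to ZG, 457 in CH from H1 to H2, 1999 in HF from ZG to H2, 21 for the common RFI effect and 2418 for the interaction. EdgeR without a block gave 323 for breed in ZG, 172 in CH from H1 to H2, 479 and 995 in HF from ZG and H1 to H2, and 1 for the interaction. Without a filter breed in H2 had 10 and CH from H1 to H2 had 503. RFI calls were 2 in CH-H1 by DESeq2 and by the exact test, 2 and 1 in CH-H2, and 1 in HF-ZG by DESeq2. A pseudocount of 0.25 changed no call. In shallow libraries GADD45A rests on few counts, which limits its precision.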
